A study of Mus musculus with 3 samples.

Results

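The 33 genes described here encode enzymes of the tricarboxylic acid (TCA) cycle, of the entry of pyruvate into it, and of mitochondrial fatty acid oxidation. They were chosen by gene symbol from a list, and 33 of 33 were found among the 43346 genes of the deposited table, each as a protein-coding gene, on 16 chromosomes. 17 belong to pyruvate entry and the TCA cycle and 16 to fatty acid oxidation. RNA was sequenced from 3 libraries of adipose-derived mesenchymal stem cells (MSCs, adherent stromal cells) of the C57BL/6 strain, grown from the fat pads of adult mice in advanced MEM with serum. The study concerns MSC transplantation against narrowing of the vein in haemodialysis fistulas. There is a single group and no untreated, mutant or differentiated comparator, and the labels name neither the depot nor the passage. Whether each library had its own mouse or culture is not stated either, and the SDs below may therefore be technical. No test between conditions could be made. Members, list levels and library differences are therefore given as descriptions without p-values, and 3 values against 3 could not go below p = 0.10 in an exact permutation test.

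The TCA cycle oxidises acetyl-CoA in the mitochondrial matrix and passes the electrons to the respiratory chain as NADH and reduced flavin. Pyruvate supplies acetyl-CoA through the pyruvate dehydrogenase complex, and fatty acids supply it through beta-oxidation, in which acyl groups carried in by the carnitine shuttle are shortened in repeated rounds of dehydrogenation, hydration, dehydrogenation and thiolysis. Fat cells store fatty acids, whereas brown fat cells, heart and liver burn them at high rates. Cultured stromal cells usually draw much of their energy from glycolysis.

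Levels are RPKM (reads per kilobase of gene model, scaled to the reads of the library) as the authors deposited them. A gene was called detected at an RPKM of 1 or more in all 3 libraries. The step size of low values implied 28818000, 32984400 and 32021200 reads in libraries 1, 2 and 3, and the lowest member was then backed by 358 to 505 inferred reads per library. Mesenchymal markers were present, with 6 of 6 detected. White adipocyte markers (0 of 5 detected), brown or beige adipocyte markers (0 of 5) and hepatocyte markers (0 of 3) were near the floor, Adipoq and Alb being listed at 0. Their summed RPKM over the libraries was 0.117 to 0.176, 0.481 to 0.599 and 0.0245 to 0.118. Mesothelial markers were detected in 5 of 5 and macrophage markers in 4 of 5 cases, with summed RPKM of 153 to 172 and 34.5 to 36.4. In bulk RNA the share of any member's reads that came from such cells was not tested.

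All 33 members were detected, against 47.4% of all protein-coding genes and 28.3% of all genes of any type. Their median log2(RPKM + 1) was 3.98 ± 0.06 (SD over libraries, n = 3) and that of the detected protein-coding genes 2.91 ± 0.01. The difference of 1.07 ± 0.06 was 0.51 after each library was rescaled to the same sum (TPM) and 3.13 against all protein-coding genes, detected or not. TPM moves every gene of a library by the same factor, so ratios between genes within a library stay the same. The value of 0.51 differs through the fixed 1 added before the logarithm and the fixed threshold of 1. 27 members stood above the median detected protein-coding gene, and 5 stood above the 90th percentile of those genes. Those 5 were Mdh2, Etfb, Pdha1, Cs and Dlst. The range from the highest member, Mdh2 at 96.1 ± 1.26, to the lowest, Hadhb at 2.07 ± 0.229, covered the 97.2nd to the 12.8th percentile of the detected protein-coding genes. Of the 528 pairs of members, 500 had ranges over the libraries that did not overlap, and the same held for 93.7% of all pairs of detected protein-coding genes. Of the 32 pairs of neighbours in the order of levels, 14 were separated and the others did not differ beyond their spread.

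**Figure D1:**
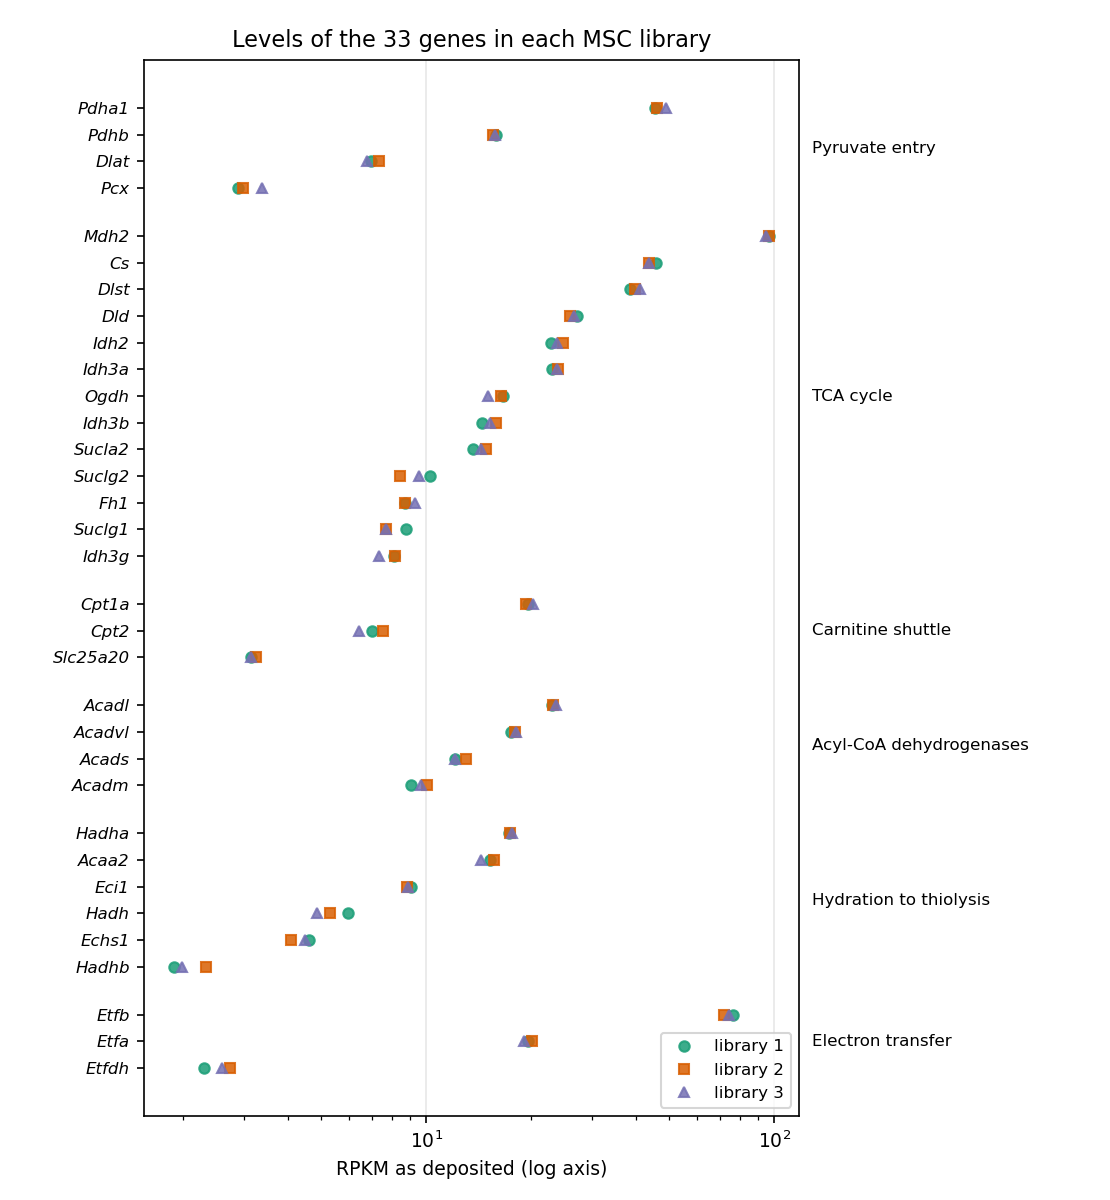
RPKM of each member in libraries 1, 2 and 3 (log axis), grouped by role and ordered by mean within a role. The 3 symbols of a gene lie close together, while members of a role are spread from 2.07 (Hadhb) to 17.4 (Hadha) in the hydration to thiolysis steps and from 2.54 (Etfdh) to 74.1 (Etfb) in electron transfer.

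Promoters are shown for 2 sets of partner genes whose RNA levels lay apart, chosen after their values were seen. Hadha and Hadhb encode the alpha and beta subunits of the mitochondrial trifunctional protein and are transcribed in opposite directions from adjacent start sites on chromosome 5. The stretch between the RefSeq start sites is shown because both genes start at its ends. The next 3 sequences are the 250 bases before the starts of Etfa, Etfb and Etfdh, shown because these partners of a single electron route lay far apart in level. All are RefSeq sequences on GRCm38.p6, written 5′ to 3′ on the strand named, with capitals for matches to GGGCGG (the GC box), the NRF1 motif (GCGCA and GCGC with 1 base of any kind between them) or TGACGT (a cyclic AMP response element core) on either strand.
Hadha to Hadhb, chr5:30154981-30155252, plus strand: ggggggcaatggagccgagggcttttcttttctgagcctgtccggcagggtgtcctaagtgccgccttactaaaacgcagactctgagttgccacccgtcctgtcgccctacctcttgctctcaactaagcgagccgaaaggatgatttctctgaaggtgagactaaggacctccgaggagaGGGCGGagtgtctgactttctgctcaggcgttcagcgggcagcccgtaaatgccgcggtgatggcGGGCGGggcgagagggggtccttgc
Etfa, chr9:55512244-55512493, minus strand: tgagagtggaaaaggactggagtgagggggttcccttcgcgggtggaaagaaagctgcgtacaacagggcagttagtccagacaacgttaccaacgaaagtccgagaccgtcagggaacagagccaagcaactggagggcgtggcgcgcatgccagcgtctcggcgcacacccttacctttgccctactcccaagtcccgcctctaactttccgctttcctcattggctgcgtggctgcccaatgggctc
Etfb, chr7:43443822-43444071, plus strand: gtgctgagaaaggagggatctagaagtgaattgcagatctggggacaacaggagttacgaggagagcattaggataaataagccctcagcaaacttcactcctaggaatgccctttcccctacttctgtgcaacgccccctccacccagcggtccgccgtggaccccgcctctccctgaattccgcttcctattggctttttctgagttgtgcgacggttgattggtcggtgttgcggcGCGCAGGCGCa
Etfdh, chr3:79628768-79629017, minus strand: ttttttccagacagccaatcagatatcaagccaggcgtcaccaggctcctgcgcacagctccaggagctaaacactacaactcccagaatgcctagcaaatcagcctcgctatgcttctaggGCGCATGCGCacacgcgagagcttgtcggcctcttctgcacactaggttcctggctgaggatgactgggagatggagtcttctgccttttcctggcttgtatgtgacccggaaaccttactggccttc

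The stretch between Hadha and Hadhb is 272 bases long, holds 18 CpG dinucleotides and 60.3% G and C, and carries 2 GC boxes. Etfb and Etfdh, the highest and the lowest member of the electron transfer trio, each hold an NRF1 match, and Etfa holds none in these bases. GENCODE M21 extends Etfdh to 79629500 on its minus strand, so the stretch printed for it lies within that gene's span. RefSeq promoter windows (250 bases before to 50 after the start) were matched for 31 members. GGGCGG was found in 74.2% of these members, in 72.4% of 7853 detected protein-coding genes with a window and in 38.2% of all 27025 genes with a window. The NRF1 motif was found in 12.9% of members (Dld, Etfb, Etfdh and Sucla2), in 12.5% of the detected protein-coding genes and in 5.19% of all genes. TGACGT was found in 7 of the 31 members (22.6%), 14.2% of the detected protein-coding genes and 8.37% of all genes. The ERR motif TCAAGGTCA and the PPAR motif (a repeat of AGGTCA with 1 base between the copies) were in no member's window and in 0.280% and 0.0127% of the detected protein-coding genes. CCGGAAGT, CACGTG and AANATGGC were in 9.68%, 6.45% and 12.9% of members, and in 10.0%, 12.5% and 10.7% of the detected protein-coding genes. The match in Etfdh reads the same on both strands and is marked once, and no other marked matches overlapped in the 4 printed stretches. The members' windows thus held these letters at shares near those of detected genes in general, and TGACGT was the one furthest above its share there.

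RPKM depends on the length given to a gene, and this length had an uneven effect on the members. The low values came out as whole reads when the length was the union of all annotated exons, which counts retained introns and rare ends as part of the gene. For 13 members this union was over 2 times as long as the longest principal transcript (the APPRIS principal isoform in GENCODE M21), and for 5 it was over 3 times as long. The share of all genes past these limits was not computed. The median ratio was 1.79 for the members and 1.35 for the detected protein-coding genes. Echs1 had the largest ratio, 5.32, with an exon union of 8286 bases and a principal transcript of 1557 bases. Dlst had 3.46, Hadhb 3.22, Etfdh 3.16 and Suclg1 3.04, whereas Acadl, Cpt2 and Acaa2 had 1.05, 1.01 and 1.0. Levels rescaled to the principal transcript assume that every read of a gene fell on that transcript. They are given beside the deposited ones for some genes only, and other orders in deposited RPKM may also turn on the length.

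**Figure D2:**
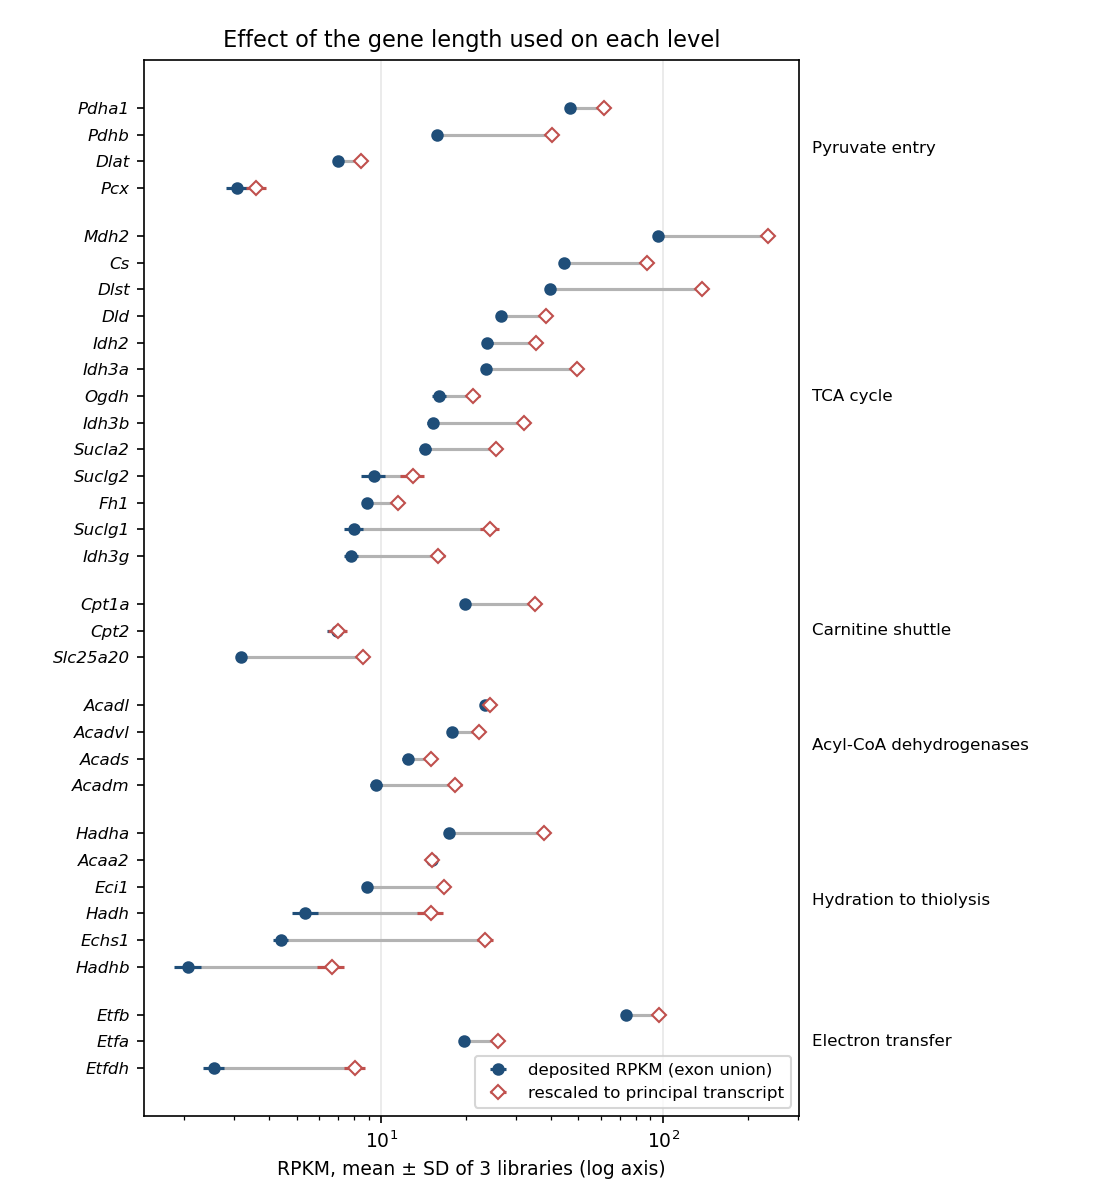
Mean RPKM of each member as deposited (filled circles) and rescaled to the length of the principal transcript (open diamonds), with bars of 1 SD over 3 libraries (n = 3) on a log axis. Echs1 moves from 4.39 to 23.3, whereas Acaa2 stays at 15.1.

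Pyruvate enters the cycle through the pyruvate dehydrogenase complex or through carboxylation. Pdhb, the beta subunit of its E1 enzyme, had 15.8, 15.6 and 15.8 RPKM in libraries 1, 2 and 3. Pdha1, the E1 alpha subunit that carries the regulatory phosphorylation sites and lies on the X chromosome, had 45.4, 46.2 and 49.0 RPKM. The subunits pair in equal numbers in the enzyme, yet Pdhb RNA was 2.98-fold lower than Pdha1 RNA (log2 ratio -1.57 ± 0.06, SD, n = 3), without overlap. The gap was smaller, 1.53-fold, after rescaling to principal transcripts. Dlat, the E2 acetyltransferase core, had 7.01 ± 0.282 RPKM and was 6.69-fold lower than Pdha1. Dld, the E3 dihydrolipoamide dehydrogenase that this complex shares with the 2-oxoglutarate and branched-chain complexes, had 27.2, 25.8 and 26.5 RPKM. Pcx, pyruvate carboxylase, which makes oxaloacetate and refills the cycle, was near the bottom with 2.88, 2.98 and 3.37 RPKM. It was 14.4-fold lower than citrate synthase Cs, whose product needs that oxaloacetate, and 24.4-fold lower on the principal transcript scale, where it was the lowest member.

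Among other genes that act on pyruvate, 10 of 11 were detected. The kinases that switch the complex off were led by Pdk3 at 15 ± 0.153 RPKM, followed by Pdk1 at 3.71 ± 0.201, Pdk2 at 2.55 ± 0.148 and Pdk4 at 2.23 ± 0.240. The phosphatases that switch it on, Pdp1 and Pdp2, had 1.51 ± 0.212 and 1.59 ± 0.220. Pdhx, which anchors Dld in the complex, had 3.71 ± 0.0751, and the mitochondrial pyruvate carrier genes Mpc1 and Mpc2 had 4.98 ± 0.679 and 2.08 ± 0.0734. The testis form Pdha2, at 0.00984 ± 0.0170, was the one not detected. Thus Pdk3 was the kinase with the most RNA in these cells.

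The 13 TCA cycle members, Dld included, ranged from 7.83 to 96.1 RPKM with a median of 16.0. Mdh2, mitochondrial malate dehydrogenase, had 96.8, 96.9 and 94.7 RPKM and was the highest of all 33 members in every library. It was 5.91-fold higher than its cytosolic counterpart Mdh1 at 16.3 ± 0.137. Cs, which joins acetyl-CoA to oxaloacetate, had 45.7, 43.6 and 43.6 RPKM. Cs overlapped its neighbour Pdha1 in deposited RPKM but not after rescaling, where it had 87.5 ± 2.31 and Pdha1 61.4 ± 2.46. Fh1, fumarase, had 8.68, 8.70 and 9.28 RPKM and overlapped its neighbours Eci1 and Suclg1 in deposited RPKM. After rescaling these 3 genes no longer overlapped, Fh1 standing at 11.4 ± 0.441, Eci1 at 16.7 ± 0.261 and Suclg1 at 24.3 ± 1.90.

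Both mitochondrial forms of isocitrate dehydrogenase were present at like levels. Idh2, the NADP-dependent form, had 22.8, 24.8 and 23.8 RPKM. Idh3a, the catalytic subunit of the NAD-dependent form that drives the cycle, had 23.0, 23.9 and 23.7 RPKM and overlapped it. On the principal transcript scale Idh2 was 1.41-fold lower than Idh3a. Idh2 was 1.44-fold higher than the cytosolic Idh1 at 16.5 ± 0.560. Idh3b and Idh3g, the regulatory partners, had 15.2 ± 0.725 and 7.83 ± 0.461 RPKM. The NAD-dependent enzyme holds more alpha than beta or gamma subunits, and its RNAs stood in the order alpha, beta, gamma in all 3 libraries. Idh3a exceeded Idh3b by 0.63 ± 0.04 and Idh3g by 1.59 ± 0.10 in log2 ratio, and by 0.63 and 1.65 after rescaling, so this order did not depend on the length used.

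The 2-oxoglutarate dehydrogenase complex was uneven too, but in the opposite order to the pyruvate complex, with its E2 core above E1. Dlst, the E2 succinyltransferase core, had 38.5, 39.7 and 41.0 RPKM. Ogdh, the E1 enzyme that decarboxylates 2-oxoglutarate, had 16.7, 16.4 and 15 RPKM. Dlst was 2.48-fold higher than Ogdh (log2 ratio 1.31 ± 0.12) and 6.49-fold higher after rescaling. Ogdh exceeded Ogdhl, an isozyme best known from brain, by 3.88-fold, with Ogdhl detected at 4.13 ± 0.218.

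Succinyl-CoA synthetase makes either GTP or ATP, depending on which beta subunit joins the shared alpha subunit. Suclg2, the GTP-forming beta subunit, had 10.3, 8.41 and 9.55 RPKM. Sucla2, the ATP-forming beta subunit, had 13.6, 14.9 and 14.4 RPKM. Suclg2 was 1.52-fold lower than Sucla2 without overlap, and 1.98-fold lower after rescaling, so the ATP-forming subunit had more RNA on both scales. Suclg1, the shared alpha subunit, had 8.73, 7.65 and 7.65 RPKM and overlapped Suclg2. Its log2 ratio to Suclg2 changed sign, -0.23 ± 0.09 as deposited and 0.92 on the principal transcript scale. A processed pseudogene, Gm15163, shares 16.0% of the 50-base windows of Suclg2 transcripts and was listed at 2.51, 2.68 and 2.37 RPKM, and its reads added to those of Suclg2 would give 10.1 ± 0.902.

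The 5 TCA cycle genes outside the members were all detected. Sdha, the flavoprotein of succinate dehydrogenase, had 30.4 ± 0.757 RPKM, with Sdhc the lowest at 12.8 ± 0.378. Of 10 genes that exchange glutamate, malate, citrate or oxaloacetate carbon with the cycle, 8 were detected. The highest deposited levels were those of Glud1, glutamate dehydrogenase, at 34.1 ± 1.73 and Pck2, mitochondrial phosphoenolpyruvate carboxykinase, at 26.1 ± 0.816. Got2 had 24.1 ± 1.59. After rescaling Got2 had 46.0 ± 3.03, Pck2 44.1 ± 1.38 and Glud1 42.3 ± 2.15. The citrate-cleaving enzyme Acly, which turns exported citrate into cytosolic acetyl-CoA, had 23.2 ± 0.307.

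The 16 fatty acid oxidation members had a median log2(RPKM + 1) of 3.57 ± 0.06, and the 17 members of pyruvate entry and the TCA cycle 4.06 ± 0.03. The difference of -0.48 ± 0.06 was negative in all 3 libraries and became -0.84 on the principal transcript scale. The carnitine shuttle was led by its control point. Cpt1a, the outer-membrane carnitine palmitoyltransferase that malonyl-CoA inhibits, had 19.7, 19.4 and 20.3 RPKM. Cpt2, its inner-membrane counterpart, had 6.98, 7.50 and 6.43 RPKM. Cpt1a exceeded Cpt2 by 2.84-fold, and by 4.99-fold after rescaling. Slc25a20, the carnitine-acylcarnitine carrier between them, had 3.17 ± 0.0671. After rescaling Slc25a20 had 8.62 ± 0.182 and stood above Cpt2 at 7.02 ± 0.539. Cpt1a was 62.3-fold higher than the muscle form Cpt1b at 0.321 ± 0.0604. In GENCODE M21, 78.6% of the 50-base windows of Cpt1b occur in Gm44502, an overlapping gene on its strand. The identifier of Gm44502 is absent from the deposited values, so whether it affects the level of Cpt1b could not be judged. The neuronal form Cpt1c was detected at 10.9 ± 0.861, and Cpt1a was 1.83-fold higher than it. Of the 2 enzymes that make malonyl-CoA, Acaca had 2.6 ± 0.150 and Acacb 0.353 ± 0.0401.

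The 4 acyl-CoA dehydrogenases, which take the electrons in the opening step of each round, followed no order of chain length in deposited RPKM. Acadvl, for very long chains, had 17.5, 18 and 18.1 RPKM. Acadl, for long and branched chains, had 23.0, 23.2 and 23.6 RPKM and was the highest. Acadm, for medium chains, had 9.06, 10.0 and 9.66 RPKM and was the lowest. Acads, for short chains, had 12.1, 13 and 12.1 RPKM. Acadl exceeded each of the others without overlap, the log2 ratios to Acadl being -0.38 ± 0.01 for Acadvl, -1.28 ± 0.07 for Acadm and -0.91 ± 0.07 for Acads. On the principal transcript scale the ratios kept their signs at -0.14, -0.41 and -0.69, and Acads was then the lowest. Dvl2, on the opposite strand, covers 42.9% of the exon bases of Acadvl and was listed at 2.86, 3.17 and 2.32 RPKM. Whether reads of these genes were told apart by strand is not given in the sources used here.

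The subunits of the trifunctional protein were unequal in RNA. Hadhb, the thiolase subunit of the trifunctional protein, had 1.89, 2.32 and 1.99 RPKM. Hadha, the subunit with hydratase and long-chain dehydrogenase activity, had 17.2, 17.4 and 17.7 RPKM. The protein contains both subunits in equal numbers, and Hadhb RNA was 8.48-fold lower than Hadha RNA (log2 ratio -3.08 ± 0.16, n = 3), without overlap in any library. On the principal transcript scale it was 5.72-fold lower, a smaller gap than that of Dlat to Pdha1 on that scale (7.24-fold). The stretch of chromosome 5 printed above lies between the RefSeq starts of both genes, which are 273 bases apart. GENCODE M21 ends Hadha at 30155162 and starts Hadhb at 30155248, so part of that stretch lies within its Hadha gene.

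Part of the Hadhb sequence is not unique to it. Gm13910, a processed pseudogene, shares 18.1% of the 50-base windows of Hadhb transcripts and was listed at 3.74, 1.95 and 3.87 RPKM. Library 2, where Hadhb was highest, was the library where Gm13910 was lowest. With the inferred reads of both added, Hadhb would stand at 2.70, 2.75 and 2.83 RPKM, a spread of 2.42% in place of 11.1%, and Hadha would be 6.33-fold higher than that sum. Sums of this kind, chosen after values were seen, gave Suclg2 a spread of 8.92% in place of 9.89% and Pdhb 1.10% in place of 0.812%. How the aligner placed reads that match both is not given in the sources used here, and the part of this in the level and spread of Hadhb was not tested.

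**Figure D3:**
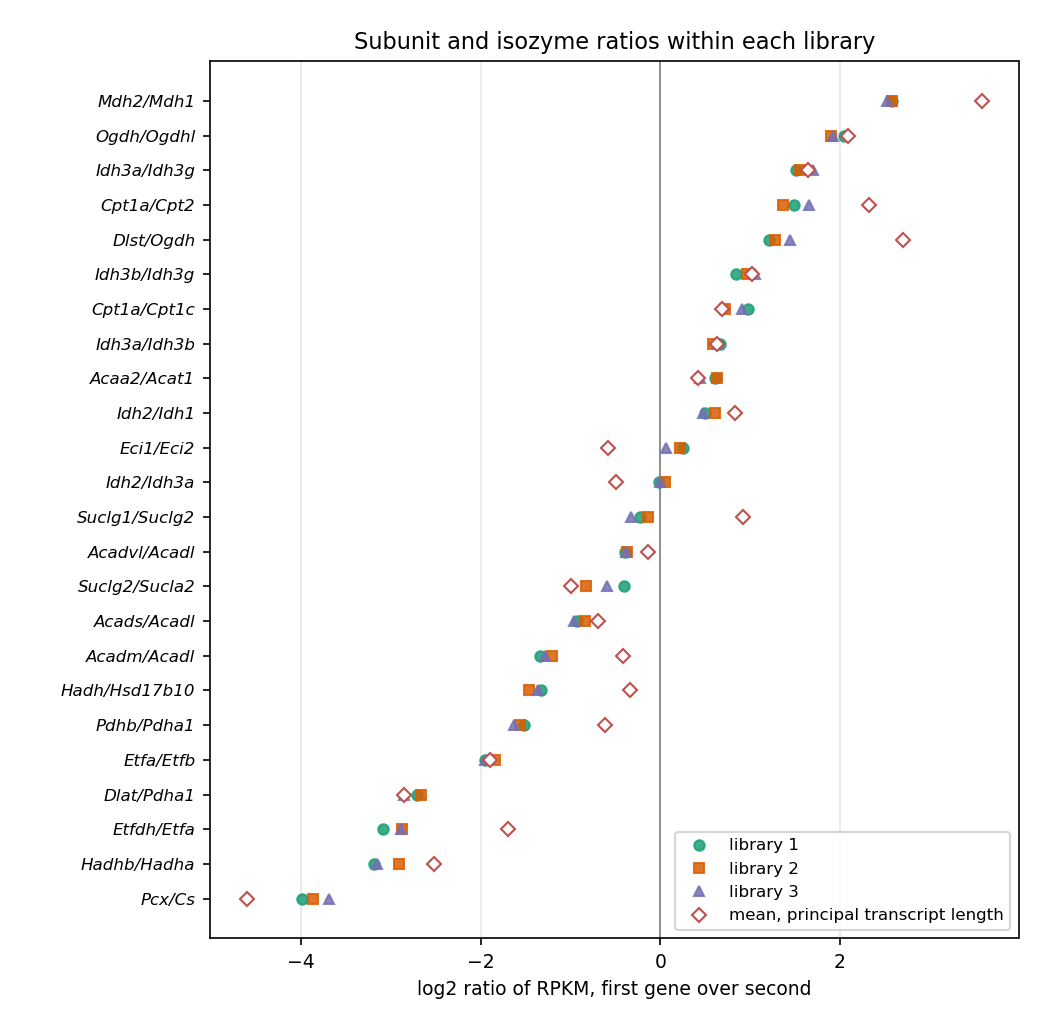
Log2 ratio of RPKM of the first over the second gene of each named pair within libraries 1, 2 and 3, with the mean after rescaling to principal transcripts as open diamonds. Cpt1a over Cpt1b (5.96) is left out for scale. Hadhb over Hadha lies near -3 in each library, and the diamonds of Suclg1 over Suclg2, Idh2 over Idh3a and Eci1 over Eci2 fall on the other side of 0.

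The remaining enzymes of the spiral act on shorter chains. Echs1, the short-chain enoyl-CoA hydratase, had 4.60, 4.08 and 4.48 RPKM, and 23.3 ± 1.46 after rescaling, which moved it from rank 29 to rank 17 among the members. Hadh, the short-chain hydroxyacyl-CoA dehydrogenase, had 5.97, 5.29 and 4.86 RPKM. It was 2.61-fold lower than Hsd17b10, a mitochondrial dehydrogenase of overlapping specificity, and 1.27-fold lower after rescaling. Acaa2, the mitochondrial thiolase, had 15.2, 15.7 and 14.3 RPKM and was 1.48-fold higher than Acat1, the acetoacetyl-CoA thiolase. Eci1, which isomerises double bonds of unsaturated fatty acids, had 8.90 ± 0.140. Its log2 ratio to Eci2 was 0.18 ± 0.10 as deposited and -0.58 after rescaling.

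Electrons from all acyl-CoA dehydrogenases pass to the electron transfer flavoprotein and from there through its oxidoreductase to ubiquinone. Etfa, the alpha subunit, had 19.7, 20.1 and 19.1 RPKM. Etfb, the beta subunit, had 76.1, 71.9 and 74.2 RPKM and was the second highest of all members in deposited RPKM, and the third after rescaling, behind Mdh2 and Dlst. Etfa was 3.78-fold lower than Etfb (log2 ratio -1.92 ± 0.07), although the flavoprotein contains both in equal numbers, and this gap was 3.73-fold on the principal transcript scale. Etfdh, the oxidoreductase, had 2.30, 2.73 and 2.59 RPKM and was 7.74-fold lower than Etfa, or 3.23-fold lower after rescaling. GENCODE M21 places Gm45233 on the same strand over Etfb, and 44.8% of the 50-base windows of Etfb transcripts occur in another annotated gene. The identifier of Gm45233 is absent from the deposited values, so whether it affects the level of Etfb could not be judged.

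In all, 6 members shared over 10% of their windows with another annotated gene (Etfb, Acadvl, Hadhb, Suclg2, Pdha1 and Pdhb), 13 shared less, and 14 shared none. The same shares were not computed over all genes, so these counts have no background. For Pdha1 the overlapping gene was Map3k15 on the opposite strand, at 0.663, 0.642 and 0.855 RPKM. For Pdhb it was the processed pseudogene Gm6123 at 0.779, 0.425 and 0.350 RPKM, whose reads added to Pdhb would give 15.9 ± 0.174.

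Related oxidation genes outside the members were detected to differing degrees. Of 11 other mitochondrial beta-oxidation genes 10 were detected, from Hsd17b10 at 14.0 ± 1.31 RPKM to Acad11 at 1.60 ± 0.124, with Acad10 at 0.298 ± 0.0673 below the threshold. Of 10 peroxisomal genes 8 were detected, with Ehhadh at 0.813 ± 0.229 and Acaa1b at 0.0948 ± 0.0578 below the threshold. In deposited RPKM they were led by the multifunctional enzyme Hsd17b4 at 19.5 ± 0.460 and the transporter Abcd3 at 18 ± 0.318. After rescaling Abcd3 had 34.0 ± 0.600 and Hsd17b4 24.7 ± 0.584. Fatty acid activation was represented by 9 of 12 genes, led by Acsl4 at 19.5 ± 0.411 and Acsl5 at 13.8 ± 0.386. Acsl1, the main acyl-CoA synthetase of fat cells, was not among them, at 1.04, 1.01 and 0.985 RPKM in libraries 1, 2 and 3. For ketone bodies, Oxct1, which uses them, had 29.6 ± 0.325.

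Of 15 genes listed as transcriptional regulators 9 were detected, and 47.4% of all protein-coding genes passed that threshold. Not all 15 are regulators of the members, since Tfam, Tfb1m and Tfb2m are on the list. In deposited RPKM the list was led by Gabpa at 12.0 ± 0.497, the PGC-1-related coactivator Pprc1 at 8.45 ± 0.0289, Ppard at 6.14 ± 0.271 and Esrra at 4.22 ± 0.235. Nrf1 had 2.21 ± 0.173. This order turned on the length used. After rescaling Ppard had 14.1 ± 0.621, Gabpa 13.7 ± 0.567, Nrf1 12.1 ± 0.946, Pprc1 10.1 ± 0.0346 and Esrra 8.25 ± 0.461. Ppargc1a, which encodes PGC-1 alpha, had 0.0418, 0.0959 and 0.0470 RPKM. Ppara had 0.127, 0.103 and 0.147, and Ppargc1b had 0.390 ± 0.0546. Esrrg, Esrrb and Pparg also missed the threshold, at 0.0150 ± 0.0151, 0.00526 ± 0.00503 and 1.11 ± 0.236, Pparg being below 1 in library 1. Of the genes that attach lipoate or biotin, Lias and Hlcs were detected at 2.13 ± 0.0502 and 2.19 ± 0.181, and Lipt1 and Lipt2 stood at 0.922 ± 0.281 and 0.745 ± 0.105.

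Against glycolysis and the respiratory chain, the members stood lower. Their median log2(RPKM + 1) was below that of 25 nuclear respiratory chain genes, with a difference of -0.65 ± 0.08, and below that of 15 glycolysis genes, with a difference of -1.66 ± 0.06. All genes of all 3 groups were detected. The glycolysis and respiratory chain lists are selections of genes, made with earlier results of these data known. The summed RPKM was 649 ± 0.707 for the 33 members and 1296 ± 14.7 for the 15 glycolysis genes, led by Pkm at 409 ± 3.63, Aldoa at 203 ± 1.04 and Ldha at 152 ± 2.05. Mdh2 at 96.1 ± 1.26 was close to the ATP synthase genes Atp5b at 99.5 ± 1.21 and Atp5a1 at 94.8 ± 1.13 in deposited RPKM. After rescaling Mdh2 had 235 ± 3.07, Atp5b 220.0 ± 2.68 and Atp5a1 120.3 ± 1.43. The 37 genes of the mitochondrial chromosome were listed at 0 in all 3 libraries, so the products that the members feed electrons to could be compared only for their nuclear part.

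**Figure D4:**
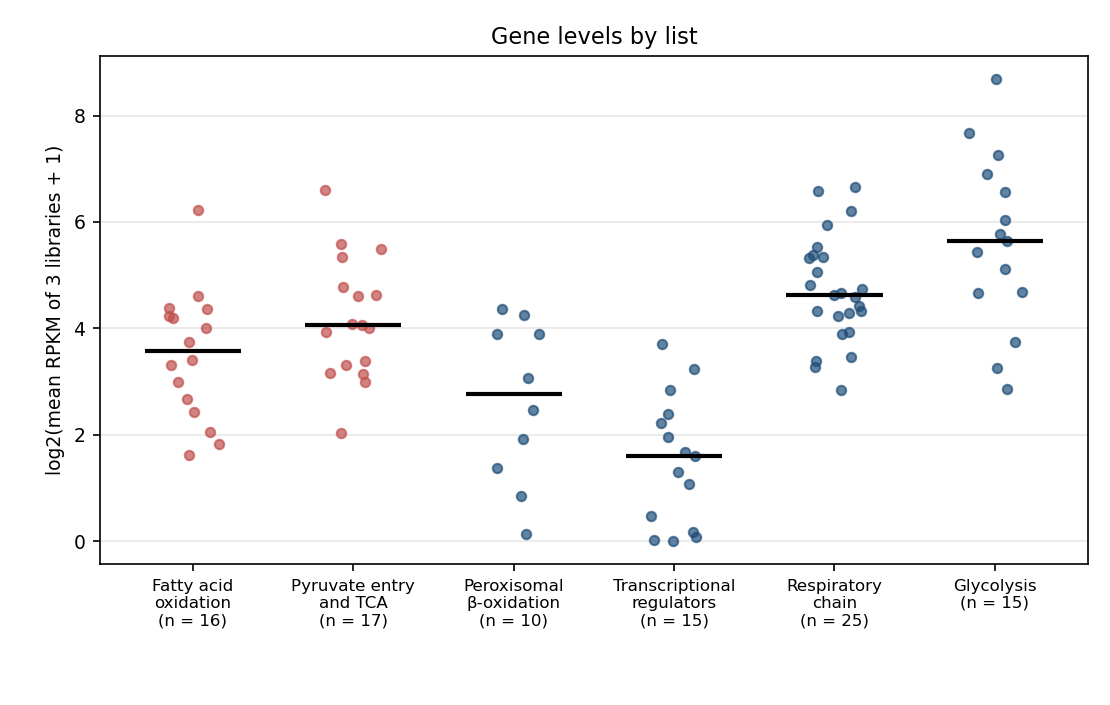
Log2 of the mean RPKM over 3 libraries plus 1 for each gene among the fatty acid oxidation and TCA members (red) and in 4 other lists (blue), with the list median as a bar. The medians of the respiratory chain and glycolysis genes lie above those of the members, and the medians of the peroxisomal genes and transcriptional regulators below.

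The members varied little between the libraries. Their median coefficient of variation was 4.03%, from 0.812% in Pdhb to 11.1% in Hadhb, and that of the detected protein-coding genes was 4.95%. The median RPKM was 15.1 for the members and 6.55 for those genes, and genes of matched level were not compared. Their summed RPKM was 648.9, 649.4 and 648.0 in libraries 1, 2 and 3. The highest library was at least 1.2 times the lowest in 3 members, Suclg2, Hadh and Hadhb, while 18.4% of detected protein-coding genes passed that fold. 10 members were highest in library 1, 15 in library 2 and 8 in library 3, where the shares of detected protein-coding genes were 35.3%, 33.4% and 31.3%. As TPM, 30, 2 and 1 members were highest in libraries 1, 2 and 3, and so were 89.1%, 4.9% and 5.98% of detected protein-coding genes. A single row annotated as a miRNA gene, Gm23935, made up 80.6%, 86.1% and 85.3% of the summed RPKM of libraries 1, 2 and 3, and TPM divides by that sum. 15 members were lowest in RPKM in library 1, 7 in library 2 and 11 in library 3, against 34.8%, 28.2% and 37.0% of detected protein-coding genes. Suclg2 and Suclg1 were both highest in library 1, whereas Sucla2 was lowest there. Hadh was highest in library 1 and Hadhb lowest there.

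**Figure D5:**
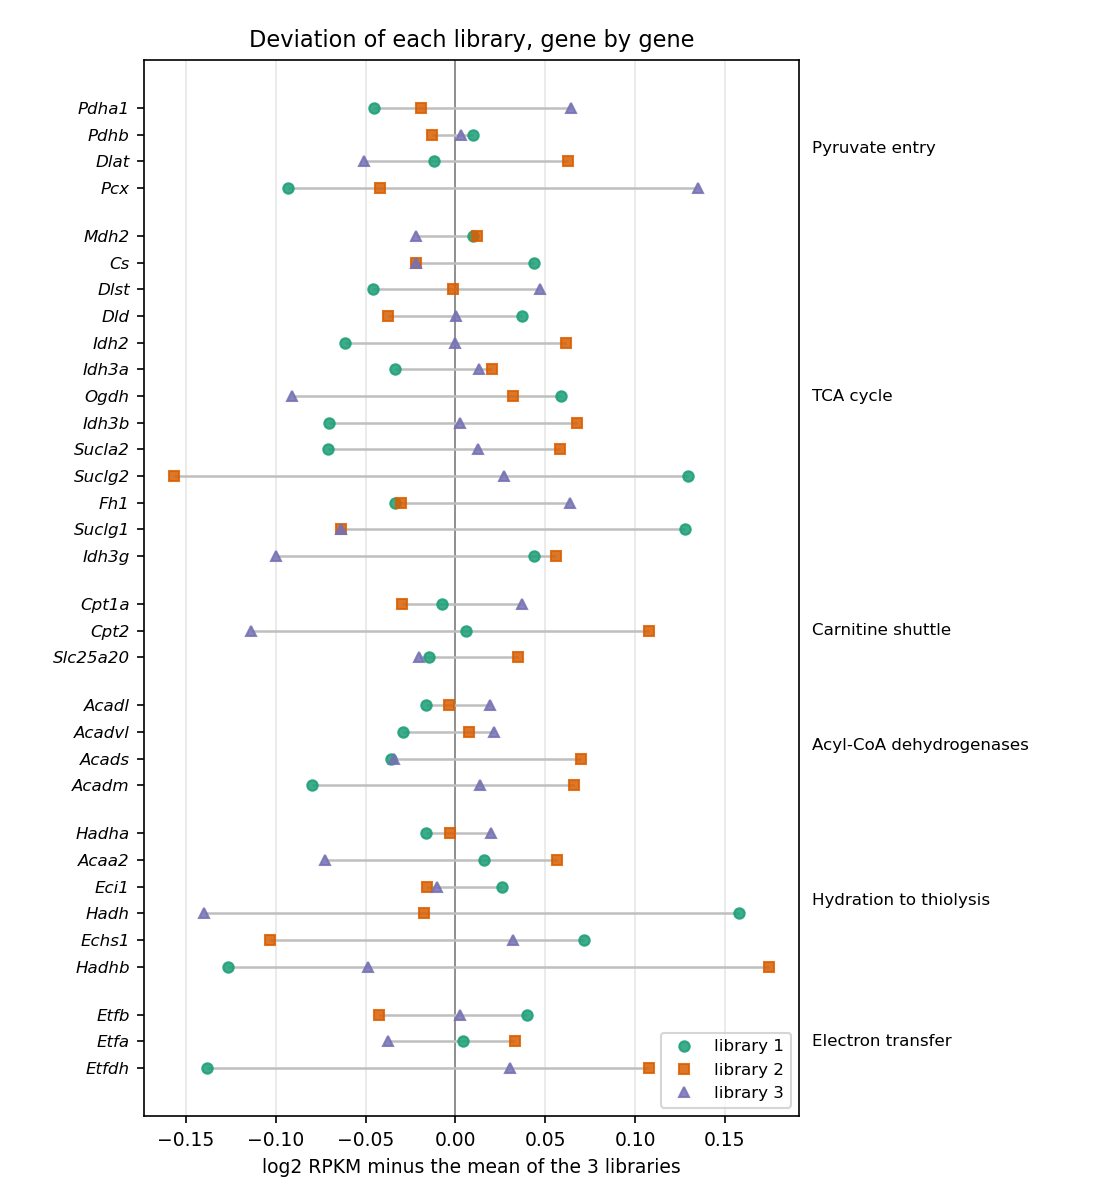
Log2 RPKM of each member in libraries 1, 2 and 3 minus the mean of the 3 libraries. The widest spreads are those of Hadhb, Hadh and Suclg2, and the narrowest those of Pdhb and Mdh2, and no library lies to the same side in all members.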

How the data were processed

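RNA was purified with the miRNeasy kit and TruSeq V2 libraries were made from total RNA, per the labels' protocols. RPKM values for 43346 genes in 3 libraries, deposited by the authors as one table, were used. Reads were placed on mm10, per the submitters' processing notes. Neither aligner and counter nor strand setting and annotation release is given in the sources used here. Columns were matched to libraries by the number in their names. Levels are means ± SD (n = 3). Lists were compared as medians of log2(RPKM + 1), a scale that compresses low genes, with no test, since there is a single group. Library totals were inferred as the totals at which RPKM times exon union length gave whole reads; 84.0% to 84.9% of values under 10 reads came within 0.05 of a whole number, and members' read numbers are approximate. The step was tested on simulated data. 42462 identifiers matched GENCODE M21 (GRCm38, the mm10 build), which gave lengths, overlaps and transcripts. Shared sequence is the share of 50-base transcript windows, both strands, found in another annotated gene; unannotated copies were not searched. Promoters are from RefSeq (GRCm38.p6); Idh3a and Acaa2 were not matched. All members were named, and from the other lists the highest, the lowest, undetected and paired genes and others chosen after their values were seen. The members, lists, motifs and 25 gene pairs were chosen with earlier results of these data known. Alternatives were other pseudocounts, thresholds, scalings, backgrounds and list definitions, leaving out each library and, chosen after seeing the data, principal transcript lengths. The 1.2-fold limit and the sums with pseudogenes were also chosen after values were seen. Python 3.11.15, numpy 2.4.6, pandas 2.3.3 and matplotlib 3.10.9 were used.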

Additional observations from a re-analysis of the deposited data

How the results depend on the processing

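No paired analysis was possible because there is a single group. The number of members detected stayed at 27 to 33 over every threshold, scale and left-out library tried. The members' median log2 level of 3.98 was 3.90 and 3.89 with pseudocounts of 0.1 and 0.01, 2.64 as TPM, 4.6 on principal transcript lengths and 3.95 to 4.0 with a library left out. Its difference of 1.07 from detected protein-coding genes was 1.17 with a pseudocount of 0.1, 0.51 as TPM, 3.13 against all protein-coding genes, 1.25 on principal lengths and 1.05 to 1.11 with a library left out. The fatty acid oxidation minus TCA difference of -0.48 was -0.68 with list means, -0.65 without the electron transfer genes, -0.84 on principal lengths and -0.50 to -0.45 with a library left out. The difference from glycolysis, -1.66, was -1.77 with list means, -1.72 with a pseudocount of 0.1, -1.56 as TPM and -1.47 on principal lengths. The difference from the respiratory chain, -0.65, was -0.86 with list means and -0.80 on principal lengths. As TPM, 30, 2 and 1 members were highest in libraries 1, 2 and 3 and the median coefficient of variation was 8.58%; with a library left out it was 2.66% to 3.21%. TPM divides by a sum of which one row, Gm23935, is 80.6% to 86.1%, and moves every gene of a library by the same factor. List differences then change through the fixed pseudocount and threshold. Principal lengths change each gene's divisor by construction.

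Library scaling cannot change a ratio of genes within a library. On principal lengths Idh2/Idh3a (-0.49), Suclg1/Suclg2 (0.92) and Eci1/Eci2 (-0.58) reversed. As inferred reads with no division by length, Idh2/Idh3a (-0.96), Acadvl/Acadl (0.042), Hadh/Hsd17b10 (0.55), Acaa2/Acat1 (-0.75) and Eci1/Eci2 (-1.20) reversed. Without library 2, Idh2/Idh3a was -0.0052, and without another library it reached 0.029. The other 24 ratios kept their sign with each library left out. Counting error is small beside the larger of these differences, since the lowest member had at least 358 inferred reads per library. It was not computed for ratios near 0, such as Idh2/Idh3a without library 2 and Acadvl/Acadl as inferred reads. Multi-mapped reads, strand and the authors' exact gene lengths also limit comparisons between genes.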
